A study of Caenorhabditis elegans with 51 samples.

Results

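Small RNA was followed on 8 germline genes of Caenorhabditis elegans that encode CCCH zinc finger proteins: oma-1, oma-2, moe-3, mex-5, mex-6, mex-1, pos-1 and pie-1. They were chosen by gene name, though with earlier results of these data known. All 8 were found among the 20202 genes of the deposited table (20938 gene models before models with a shared symbol were reduced to 1). Of the 8, 7 passed the filter on low values and were tested beside 10908 genes in all. The eighth, moe-3, did not pass.

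The proteins of this family fold short stretches of cysteine and histidine around zinc and bind RNA. In the worm they are made from maternal mRNA and act from the last stages of the oocyte to the first divisions of the embryo, where they control when maternal mRNAs are translated or destroyed and which blastomeres stay germline. Germline genes of this kind are also matched by endogenous small interfering RNAs, which are loaded on Argonaute proteins. HRDE-1 acts in germ cell nuclei in silencing that is passed to progeny, and CSR-1 is an Argonaute best known for siRNAs that match expressed germline genes.

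The libraries hold small RNA of young adults of the strain CSS342, which combines Cer3(red20) with the tagged proteins SF-HRDE-1 and c-myc-CSR-1. Cer3 is a retrotransposon, and its red20 allele carries a fragment of oma-1. The insert and both tagged Argonautes were therefore present in each of the 3 groups: the input, the small RNA precipitated with HRDE-1 and the small RNA precipitated with CSR-1 (small RNA immunoprecipitation, sRIP), with 2 libraries each. The other 45 of the 51 samples of the series were not analysed here. Among these 6 libraries the labels name no mock precipitation and no strain without the insert or without the tags. Carry-over of input RNA and binding can therefore not be told apart, nor can small RNA made from native oma-1 and from the fragment in Cer3, which are summed in the oma-1 value.

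Values are RPKM, reads scaled to the length of the gene model and to library size, as the authors deposited them. Deduced library totals ran from 2104162 to 4992358 reads, of which 39.0% to 51.4% lay on gene models. The 8 genes together took 898 and 706 input reads, 803 and 489 in HRDE-1 and 2635 and 1624 in CSR-1. Per 10000 reads on gene models that was 6.65 and 6.53 in the input, 3.42 and 2.99 in HRDE-1 and 13.5 and 13 in CSR-1. The input pair showed no difference beyond sampling noise across 9272 genes (chi-square over its degrees of freedom 0.983) and was counted as 1 sample, so input means carry no SD. The HRDE-1 pair differed by more than sampling noise (ratio 1.91 over 10458 genes) and the CSR-1 pair slightly so (ratio 1.06 over 8140 genes). Separate cultures are not mentioned in the labels, so the spread that p-values are measured against may be technical.

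The libraries split the 8 genes into 3 patterns. Small RNA on 6 of them (oma-2, mex-5, mex-6, mex-1, pos-1 and pie-1) was lower in both HRDE-1 libraries than in both input libraries and higher in both CSR-1 libraries. Of all tested genes 41.7% were lower in this way in HRDE-1 and 33.2% higher in CSR-1, each counted on its own. The share of genes that did both was not counted, and both comparisons use the same input. Small RNA on oma-1, the gene whose fragment sits in Cer3, stayed between 26.6 and 33.1 RPKM in the 6 libraries. Small RNA on moe-3 was nearly undetected in 5 libraries and stood at 8.96 RPKM in 1 input library.

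**Figure D1:**
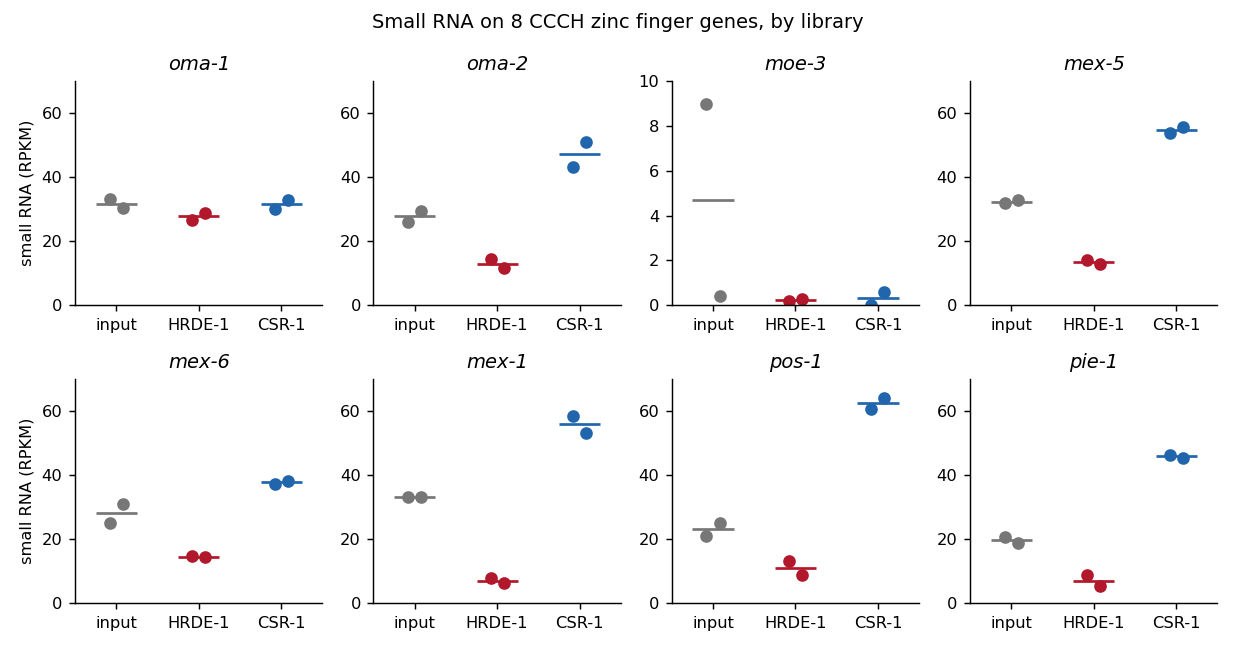
RPKM of small RNA on each of the 8 genes in the input (grey), HRDE-1 (red) and CSR-1 (blue). Each point is 1 library and each bar the mean of a pair, and moe-3 has a scale of its own. The 6 genes other than oma-1 and moe-3 step down in HRDE-1 and up in CSR-1, while oma-1 stays between 26.6 and 33.1 RPKM.

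The first group by role acts in the oocyte. oma-1 and oma-2 are closely related genes that can stand in for each other in oocyte maturation, and their proteins are removed after the first division of the embryo. On WBcel235 oma-1 lies on chromosome IV from 8888976 to 8890999 on the plus strand and has 6 exons, and oma-2 lies on chromosome V from 8029439 to 8031214 on the plus strand, also with 6 exons. The build behind the deposited values is not given in the sources used here, so these positions only say where the genes are.

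The oma-1 level was 33.1 and 30.3 RPKM in the input, 26.6 and 28.8 RPKM in HRDE-1 and 30.2 and 32.8 RPKM in CSR-1. Behind these levels were 163 and 115, 234 and 169, and 272 and 177 reads. Both HRDE-1 libraries were the lowest, by a small margin, and the CSR-1 and input libraries overlapped. The mean in HRDE-1 was 27.7 ± 1.57 RPKM and that in CSR-1 was 31.5 ± 1.83 RPKM (SD, n = 2 each), beside 31.7 RPKM in the input. limma gave a log2 fold change of −0.19 ± 0.12 (SE, adjusted p = 0.245) for HRDE-1 against input. CSR-1 against input was −0.01 ± 0.12 (SE, limma adjusted p = 0.944), with a 95% interval from −0.32 to 0.30. Neither difference passed the test, and the sign of both depended on the scale: they were 0.20 and 0.45 once library medians were centred, and 0.076 and 0.10 after the median ratio to input was set to 0. Across the 6 libraries oma-1 kept nearly the same rank, between percentiles 70.4 and 75.2 of the tested genes.

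The oma-2 level was 25.9 and 29.5 RPKM in the input, 14.4 and 11.6 RPKM in HRDE-1 and 43.2 and 51.1 RPKM in CSR-1. The 3 groups did not overlap, with HRDE-1 lowest and CSR-1 highest. Its rank among the tested genes ran from percentile 50.9 in an HRDE-1 library to percentile 85.8 in a CSR-1 library. The paralogs thus had similar input levels and different levels in both precipitates. How reads that fit both of them were counted is not given in the sources used here, so a share of either value could belong to the other gene.

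The read counts allow oma-1 to be set against each of the other 6 tested genes within a library pair. The change of oma-1 was divided by the change of the other gene, which cancels the scale of the libraries. Between HRDE-1 and input this ratio of read ratios to oma-2 was 1.45 (95% interval 1.02 to 2.05) in replicate 1 and 2.43 (1.59 to 3.72) in replicate 2. Between CSR-1 and input it was 0.547 (0.404 to 0.738) and 0.627 (0.442 to 0.886). Relative to its paralog, oma-1 was thus higher in HRDE-1 and lower in CSR-1 than in the input, in both replicates. These intervals are exact and conditional, they cover counting error only, and they compare libraries.

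Against all 6 genes, in 12 comparisons of 6 genes by 2 replicates, the ratio for HRDE-1 over input ran from 1.28 to 5.05. Its interval lay above 1 in 10 of the 12, the exceptions being mex-6 at 1.38 (0.998 to 1.91) and pos-1 at 1.28 (0.845 to 1.92), both in replicate 1. For CSR-1 over input it ran from 0.315 to 0.880 and its interval lay below 1 in 11 of 12, the exception being mex-6 in replicate 2 at 0.880 (0.629 to 1.23). For HRDE-1 over CSR-1 it ran from 2.25 to 7.56 and its interval lay above 1 in 12 of 12. The mex-6 comparison gave the smallest ratio in this contrast and the pie-1 comparison the largest. In each contrast the 6 comparisons of a replicate use the same oma-1 reads, so the 12 are not independent.

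**Figure D2:**
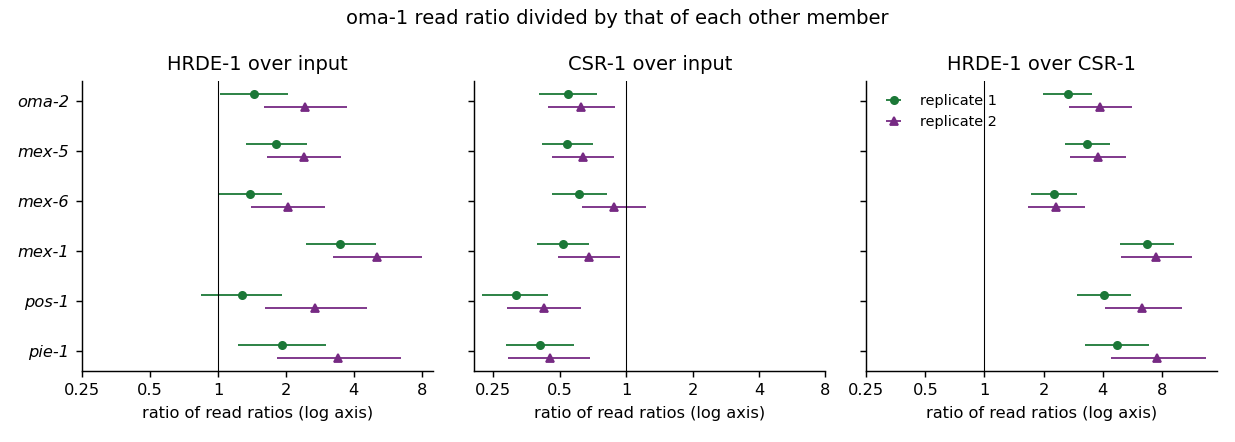
Read ratio of oma-1 divided by the read ratio of each other tested member, on a log axis, for HRDE-1 over input, CSR-1 over input and HRDE-1 over CSR-1. Circles are replicate 1, triangles replicate 2 and lines exact 95% intervals for counting error. In the HRDE-1 over CSR-1 panel the points run from 2.25 to 7.56, each interval to the right of 1.

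moe-3 is a further oocyte gene of the family and is expressed with oma-1 and oma-2. It lies on chromosome II from 13160415 to 13165733 on the minus strand of WBcel235, with 8 exons. Its reads numbered 27 and 1 in the input, 1 and 1 in HRDE-1 and 0 and 2 in CSR-1. That was 8.96 and 0.430 RPKM, 0.186 and 0.279 RPKM, and 0 and 0.606 RPKM. In 5 libraries it was thus below the value of 3 reads, which is 0.544 to 1.29 RPKM there, and the library of input replicate 1 stood alone.

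The input libraries differed at moe-3 by a rate ratio of 20.8, with an exact 95% counting interval of 3.43 to 853. A two-sided exact binomial test of the input pair gave an adjusted p of 0.0122 for moe-3, which ranked 2 among 9272 genes. Only 5 of these genes passed that test, the others being Y73F8A.26, C04E7.3, Y9D1A.2 and zen-4. The other 7 members did not differ within the input pair (adjusted p = 1.0 for each). No fold is given for moe-3 between HRDE-1 and CSR-1, since both were under 3 reads in each library, and any fold against the input rests on 1 library. The opposite-strand gene F32A11.1, whose end overlaps moe-3, had 27.2 to 33.6 RPKM in the 6 libraries and thus did not move with it.

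The second group sets the axis of the zygote. mex-5 and mex-6 are near copies with overlapping roles, and their proteins gather in the anterior and keep germline factors to the posterior. mex-5 lies on chromosome IV from 13353723 to 13356104 (5 exons) and mex-6 on chromosome II from 9524174 to 9526359 (7 exons), both on the plus strand of WBcel235.

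The mex-5 level was 31.9 and 32.7 RPKM in the input, 14.1 and 12.9 RPKM in HRDE-1 and 53.8 and 55.7 RPKM in CSR-1. The mex-6 level was 25.1 and 31.0 RPKM in the input, 14.6 and 14.4 RPKM in HRDE-1 and 37.3 and 38.1 RPKM in CSR-1. In both genes the 3 groups stood apart, and the pairs of precipitate libraries lay close together. mex-5 and mex-6 had similar levels in HRDE-1, at 13.5 ± 0.844 and 14.5 ± 0.114 RPKM (SD, n = 2 each). In CSR-1 they were further apart, at 54.7 ± 1.36 RPKM for mex-5 and 37.7 ± 0.605 RPKM for mex-6 (SD, n = 2 each). Reads shared by this pair carry the same uncertainty as those of oma-1 and oma-2.

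The third group acts in the germ plasm and the early blastomeres. mex-1 is needed for germline factors to reach the right cell, pos-1 controls translation of maternal mRNAs in posterior cells, and pie-1 holds transcription off in the germline blastomeres. On the plus strand of WBcel235, mex-1 lies on chromosome II from 11968637 to 11972330, pos-1 on chromosome V from 8414086 to 8415254 and pie-1 on chromosome III from 12426893 to 12429195.

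The mex-1 level was 33.1 and 33.1 RPKM in the input, 7.64 and 6.22 RPKM in HRDE-1 and 58.5 and 53.0 RPKM in CSR-1. It was the member with the highest mean in the input and the lowest of the 7 tested in HRDE-1, level with pie-1. Its rank among the tested genes fell from percentiles 73.8 and 73.2 in the input to 36.6 and 34.7 in HRDE-1.

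The pos-1 level was 21.0 and 25.1 RPKM in the input, 13.2 and 8.80 RPKM in HRDE-1 and 60.7 and 63.9 RPKM in CSR-1. The pie-1 level was 20.7 and 18.7 RPKM in the input, 8.64 and 5.24 RPKM in HRDE-1 and 46.3 and 45.2 RPKM in CSR-1. Both genes had non-overlapping groups in the same order, and both HRDE-1 values of replicate 1 exceeded those of replicate 2. These HRDE-1 values rest on few reads, 72 and 32 for pos-1 and 47 and 19 for pie-1. pos-1 moved from the lower end of the 7 members in the input to the top in CSR-1, where it stood at percentiles 91.3 and 90.7 of the tested genes. The opposite-strand gene snr-6 overlaps the end of pie-1, and since its values were 13.4 and 13.9, 9.02 and 5.64, and 24.2 and 26.9 RPKM, it had the same order of groups. On WBcel235 snr-6 starts at 12429172 and pie-1 ends at 12429195, so the genes overlap only over a short stretch. The part of shared reads in the pie-1 value was not tested. The overlap partner of mex-1, acbp-6, had at most 4.41 RPKM.

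The order of the members differed between the groups. In the input the means ran from mex-1 (33.1 RPKM) over mex-5, oma-1, mex-6, oma-2 and pos-1 to pie-1 (19.7 RPKM), and the libraries of mex-5, oma-1, mex-6 and oma-2 overlapped between neighbours. In HRDE-1 oma-1 came first at 27.7 ± 1.57 RPKM (SD, n = 2), apart from mex-6, which came next at 14.5 ± 0.114 RPKM (SD, n = 2). There mex-5 and oma-2, oma-2 and pos-1, and pie-1 and mex-1 overlapped. In CSR-1 oma-1 came last of the 7 tested genes at 31.5 ± 1.83 RPKM (SD, n = 2), below pos-1, mex-1, mex-5, oma-2, pie-1 and mex-6, and the overlapping neighbours were mex-1 with mex-5 and oma-2 with pie-1. moe-3 was last in each group.

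The comparison of HRDE-1 with input asks whether a gene's share of the precipitated small RNA differed from its share of the input. RPKM are relative to each library, so the amount bound was not measured. limma was fitted to log2(RPKM + 1) of all tested genes, and a gene was called where its adjusted p was under 0.05 and its log2 fold change at least 1 in size. Small RNA on 5 of the 7 tested members fell: mex-1, pie-1, mex-5, oma-2 and pos-1. Of all tested genes 17.5% were called in either direction, 10.3% lower and 7.15% higher. mex-1 fell the most, with a log2 fold change of −2.11 ± 0.16 (SE, limma adjusted p = 0.00893), at percentile 0.715 of all tested genes. pie-1 fell by 1.42 ± 0.27 (SE, limma adjusted p = 0.0177) and mex-5 by 1.2 ± 0.11 (SE, limma adjusted p = 0.00893) on the log2 scale. oma-2 fell by 1.05 ± 0.18 (SE, limma adjusted p = 0.0143) and pos-1 by 1.02 ± 0.24 (SE, limma adjusted p = 0.0259), just past the fold threshold. mex-6 had −0.91 ± 0.11 (SE, limma adjusted p = 0.00937), just inside it, and oma-1 is given above.

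Both HRDE-1 libraries lay below both input libraries for 7 of 7 tested members, against 41.7% of all tested genes (37.8% had both above). The median log2 fold change of the 7 was −1.05, beside −0.03 over all tested genes. Within the replicates mex-1 had −1.98 and −2.24, and pos-1 had −0.63 and −1.41. Library scaling changed the count of calls, which was 2 (mex-1 and pie-1) on centred library medians and also 2 with the median ratio set to 0. Of all 10908 tested genes 333 and 489 were called lower on these scales. Of all calls 41% were higher on the deposited scale, 87.1% on centred medians and 78.1% with the median ratio set to 0. Without input replicate 2 limma called 3 of the 7 and without input replicate 1 it called 6. Without HRDE-1 replicate 1, HRDE-1 replicate 2, CSR-1 replicate 1 or CSR-1 replicate 2, with the input as 1 sample, it called 0 of the 7, but also only 189, 168, 0 and 0 of all 10908 genes, so these fits say little about single genes. The groups shared 1 estimate of the spread per gene, drawn from both precipitate pairs. Calls in HRDE-1 against input thus also rest on the CSR-1 pair. That pair varied less than the HRDE-1 pair (chi-square over its degrees of freedom 1.06 and 1.91). Without HRDE-1 replicate 1 or 2 the log2 fold change was −2.24 and −1.98 for mex-1, −1.73 and −1.1 for pie-1 and −1.26 and −1.14 for mex-5. It was −1.19 and −0.90 for oma-2 and −1.29 and −0.76 for pos-1. With 2 input samples, 5 of the 7 were called without HRDE-1 replicate 1 and 3 without HRDE-1 replicate 2.

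The comparison of CSR-1 with input asks the same of the Argonaute of expressed germline genes. Small RNA on 2 of the 7 tested members rose, pos-1 and pie-1, while 44.0% of all tested genes were called in either direction, 7.13% higher and 36.8% lower. pos-1 rose by 1.40 ± 0.24 (SE, limma adjusted p = 0.00619), at percentile 98.6 of all tested genes. pie-1 rose by 1.17 ± 0.27 (SE, limma adjusted p = 0.0163), at percentile 96.3. oma-2, mex-5 and mex-1 had log2 fold changes of 0.74 ± 0.18, 0.74 ± 0.11 and 0.73 ± 0.16 (SE), with limma adjusted p of 0.0186, 0.00463 and 0.0132, and did not reach the fold threshold. mex-6 had 0.42 ± 0.11 (SE, limma adjusted p = 0.0217).

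Both CSR-1 libraries lay above both input libraries for 6 of 7 tested members, oma-1 being the exception, against 33.2% of all tested genes (53.9% had both below). The median of the 7 was 0.74, beside −0.54 over all tested genes. With library medians centred, which raised the values of all genes by 0.46, 5 of the 7 were called, the additional genes being oma-2 at 1.2, mex-5 at 1.21 and mex-1 at 1.2. On that scale 2540 of all 10908 tested genes were called higher. The higher share of all calls was 16.2% on the deposited scale, 46.1% on centred medians and 23.1% with the median ratio set to 0. Without CSR-1 replicate 1 or 2, with the input as 1 sample and CSR-1 as a lone library, limma called 0 of the 7 but 4184 and 3928 of all genes. The log2 fold change was then 1.44 and 1.36 for pos-1 and 1.16 and 1.19 for pie-1, and it stayed above 1 for both genes in each of the 18 alternatives.

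**Figure D3:**
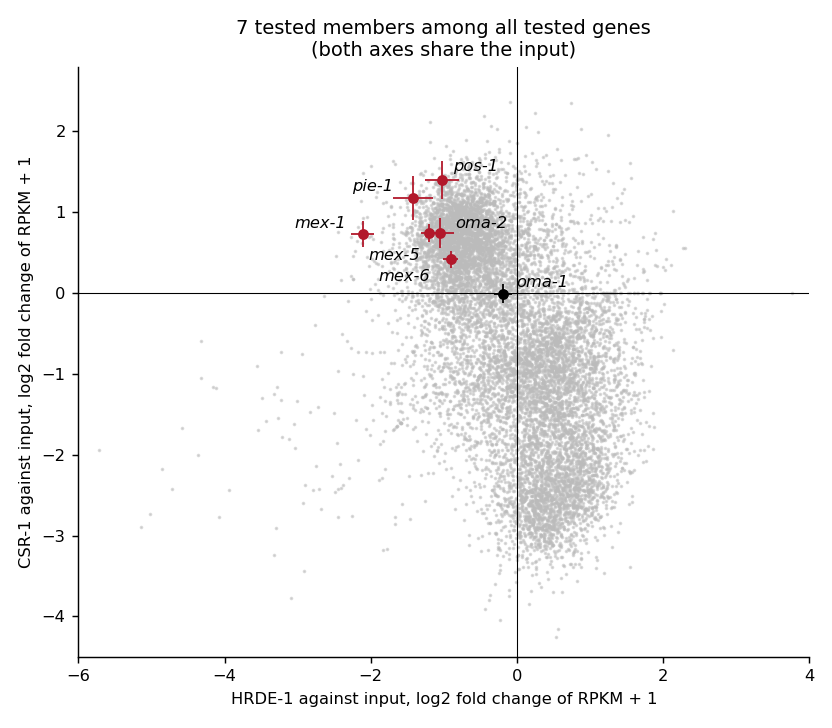
Log2 fold change of RPKM + 1 in HRDE-1 against input (x) and CSR-1 against input (y) for all tested genes (grey) and the 7 tested members, with SE as bars (oma-1 black, the others red). Both axes share the input. mex-1 lies farthest left at −2.11, pos-1 highest at 1.40, and oma-1 near the origin at −0.19 and −0.01.

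HRDE-1 against CSR-1 needs no input and compares the precipitates directly. Small RNA on 6 of the 7 tested members was lower in HRDE-1, the exception being oma-1, while 70.3% of all tested genes were called in either direction, 26.6% lower and 43.7% higher. mex-1 had a log2 fold change of −2.84 ± 0.13 (SE, limma adjusted p = 6.43e-05), at percentile 0.238 of all tested genes. pie-1 had −2.59 ± 0.22 and pos-1 −2.42 ± 0.19 (SE, limma adjusted p = 0.000307 and 0.00024). mex-5 had −1.94 ± 0.09, oma-2 −1.79 ± 0.15 and mex-6 −1.32 ± 0.09 (SE), with limma adjusted p from 7.07e-05 to 0.000266. The germ plasm and blastomere genes thus had the larger estimates. Their 95% intervals spanned −3.18 to −1.92, those of mex-5, oma-2 and mex-6 spanned −2.18 to −1.09, and as these overlap in part, the order of the groups was not tested.

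oma-1 had −0.18 ± 0.10 (SE, limma adjusted p = 0.142), with a 95% interval from −0.43 to 0.08. That interval does not reach the interval of any of the other 6. In RPKM, CSR-1 exceeded HRDE-1 by a ratio of 1.13 and 1.14 within the replicates for oma-1, 3.01 and 4.42 for oma-2 and 7.65 and 8.51 for mex-1. Both HRDE-1 libraries lay below both CSR-1 libraries for 7 of 7 tested members, against 39.5% of all tested genes (53.7% had both above). The median of the 7 was −1.94, beside 0.60 over all tested genes. limma called 6 of the 7 in each of the 18 alternatives, though those that change only the input could hardly alter this contrast.

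**Figure D4:**
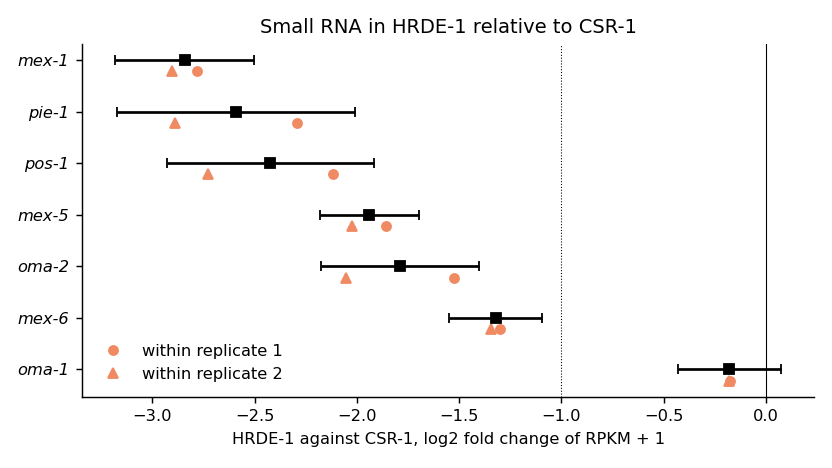
Log2 fold change of RPKM + 1 in HRDE-1 against CSR-1 for the 7 tested members. Squares are limma estimates with 95% intervals, circles and triangles the differences within replicates 1 and 2, and the dotted line the fold threshold of −1. mex-1 stands lowest at −2.84 and oma-1 alone lies beyond the threshold on the side of 0, at −0.18.

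By a fixed measure of likeness, the distance between log2(RPKM + 1) profiles centred per gene over the 6 libraries, oma-1 lay nearest to F56B3.8 (0.125), unc-76 (0.140), nfya-2 (0.148), arl-8 (0.150) and gck-3 (0.152) among 7625 genes. F56B3.8, for example, had 38.4 and 33.9 RPKM in the input, 32.2 and 31.1 RPKM in HRDE-1 and 33.5 and 37.2 RPKM in CSR-1. The other members were farther from oma-1, at distances from 1.2 for mex-6 to 2.77 for mex-1, with 1.65 for oma-2. The median distance of all genes was 1.60. The median profile of the 8 members lay nearest to F31E3.4 (0.0594), Y39A1A.14 (0.0993), knl-3 (0.101), T01G1.3 (0.103) and rsr-1 (0.12). The members, whose own values set that median, were at 0.181 (oma-2), 0.183 (mex-5), 0.605 (mex-6), 0.769 (pos-1) and 0.812 (pie-1) from it. Farther off were mex-1 (1.19), oma-1 (1.68) and moe-3 (3.16).

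Next, 3 lists of genes that work with these proteins were read beside them. The first holds 16 kinases, anchors and degradation factors, such as mbk-2, the kinase that marks OMA-1 for removal, and zif-1 and cul-2, parts of the ubiquitin ligase that removes CCCH proteins from somatic cells. In HRDE-1 against input 5 of the 16 fell, beside 10.3% of all tested genes, and the others were not called, with a list median of −0.90. The largest falls were those of chs-1, a chitin synthase of the eggshell, at −1.33, kin-19, a casein kinase, at −1.2, cul-2 at −1.09 and gsk-3 at −1.03 on the log2 scale. In CSR-1 against input mbk-2 rose by 1.08, cul-2 by 1.03 and egg-3, which anchors MBK-2 at the oocyte cortex, by 1.02 (limma adjusted p = 0.0128, 0.00441 and 0.00723), where 7.13% of all tested genes rose.

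elc-1 is an elongin C that links CUL-2 to its substrates. Its level was 47.6 and 48.6 RPKM in the input, 64.6 and 60.0 RPKM in HRDE-1 and 13.4 and 10.5 RPKM in CSR-1. Both CSR-1 libraries were thus the lowest and both HRDE-1 libraries the highest. It fell by 1.93 ± 0.17 in CSR-1 against input (SE, limma adjusted p = 0.000898), and HRDE-1 against CSR-1 was 2.30 ± 0.14 (SE, limma adjusted p = 0.000109). elb-1, the elongin B that pairs with elongin C, had 107 and 126 RPKM in the input, 128 and 127 RPKM in HRDE-1 and 78.8 and 89.3 RPKM in CSR-1. Its difference of 0.60 ± 0.11 in HRDE-1 against CSR-1 (SE, limma adjusted p = 0.00429) had the sign of that of elc-1 and was under the fold threshold. In that contrast 11 of the 16 were called lower, beside 26.6% of all tested genes, and 1, elc-1, was called higher, with a list median of −1.36. cul-2 had −2.13, egg-3 −1.95, zif-1 −1.82 and chs-1 −1.78.

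The second list holds 17 maternal mRNAs under the control of these proteins and RNA-binding partners. In HRDE-1 against input 7 of the 17 fell, beside 10.3% of all tested genes, and the others were not called, with a median of −0.80. apx-1, a Notch ligand of the early embryo, had −1.51, puf-3, a Pumilio family protein, −1.34, spn-4, an RNA-binding protein of early cell fate, −1.25 and lin-41, an oocyte regulator, −1.22. In CSR-1 against input lin-41 alone was called, from 10.9 and 12.3 RPKM to 29.8 and 33.8 RPKM (1.38 ± 0.24 SE, limma adjusted p = 0.00634). In HRDE-1 against CSR-1 11 of the 17 were lower, beside 26.6% of all tested genes, and the others were not called, with a median of −1.50, led by lin-41 at −2.60, puf-3 at −2.21, apx-1 at −2.03 and puf-11 at −1.93.

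The third list holds 11 transcription and chromatin partners of OMA-1 and PIE-1, such as taf-4 of the transcription machinery and cdk-9, the elongation kinase. In HRDE-1 against input 3 of the 11 fell, beside 10.3% of all tested genes, and the 11 had a median of −0.86, each below 0. They were gei-17, a SUMO ligase, at −1.37, smo-1, the SUMO protein, at −1.23 and ubc-9, the SUMO-conjugating enzyme, at −1.07, and on centred library medians they had −0.98, −0.85 and −0.68 and were not called. In CSR-1 against input limma called 0 of the 11, and the median was 0.61. An unadjusted limma p under 0.05 was found for 8 of them, beside 7939 of all 10908 tested genes. These 8 had limma adjusted p from 0.0024 (let-418) to 0.0331 (cit-1.2) and missed only the fold threshold. In HRDE-1 against CSR-1 10 of the 11 were lower, beside 26.6% of all tested genes, led by cdk-9 at −1.88, smo-1 at −1.63, mep-1 at −1.62 and taf-4 at −1.56.

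The calls of the lists in HRDE-1 against input depended on the scale. With library medians centred, which raised the values of all genes by 0.39, limma called 0 of the 16, 2 of the 17 (1 higher and 1 lower) and 0 of the 11. On that scale 2254 of all 10908 tested genes were called higher and 333 lower. With the median ratio set to 0 the counts lower were 1, 2 and 1, where 489 of all tested genes were called lower. In CSR-1 against input the counts higher were 6, 9 and 6 with library medians centred, where 2540 of all 10908 tested genes were called higher, and 4, 2 and 2 with the median ratio set to 0, where 1157 were. The medians of the 3 lists had the same sign under both scales. In HRDE-1 against CSR-1 the counts lower were 12, 11 and 10 with library medians centred, where 3086 of all 10908 tested genes were lower. With the median ratio set to 0 they were 10, 10 and 10, where 2532 of all tested genes were called lower.

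**Figure D5:**
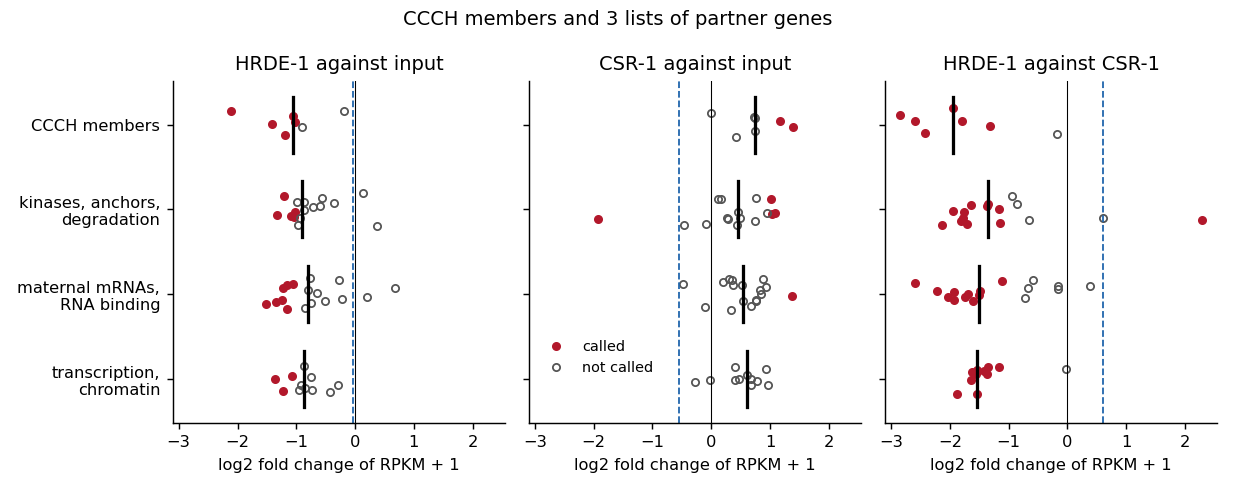
Log2 fold change of RPKM + 1 of each tested gene of the CCCH members and of the 3 partner lists in the 3 contrasts. Filled red points were called, open points were not, black bars are list medians and the dashed blue line is the median of all tested genes. The point at 2.30 in HRDE-1 against CSR-1 is elc-1.

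Small RNA on marker genes of tissues gives a reference for these values, beside the 10.3% of all tested genes that were lower and 7.15% that were higher in HRDE-1 and the 36.8% lower and 7.13% higher in CSR-1 against input. The libraries are of whole worms, so these values do not show which cells the small RNA came from. Of 7 tested oocyte markers 6 were lower in HRDE-1 and 5 higher in CSR-1 against input, and their summed level was 303 to 322 RPKM in the input, 112 to 120 RPKM in HRDE-1 and 642 to 716 RPKM in CSR-1. Of 4 tested sperm markers 2 were lower in HRDE-1 and 4 lower in CSR-1, with sums of 57.1 to 61.2, 58.1 to 61.7 and 5.80 to 6.64 RPKM. Of 5 tested neuronal markers 2 were higher in HRDE-1 and 3 lower in CSR-1, with sums of 187 to 191, 311 to 318 and 68.3 to 69.0 RPKM. Of 4 tested intestinal markers 2 were lower in HRDE-1 and none passed the fold threshold in CSR-1 (0 called by limma, 3 with an unadjusted p under 0.05), from sums of at most 9.26 RPKM in any library. Of all 10908 tested genes 7939 had an unadjusted limma p under 0.05 in CSR-1 against input. Of the 8 oocyte markers perm-4 was at 0 in each library, and vit-6, elt-2 and asp-1 of the 6 intestinal ones were at 0 in both HRDE-1 libraries. The oocyte markers thus moved with 6 of the CCCH genes in both precipitates, and their part in these values was not tested.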

How the data were processed

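Small RNA was sequenced from 6 libraries, with 2 for the input and 2 for the precipitate of each Argonaute. Per the labels' protocols, RNA was treated with phosphatase and polynucleotide kinase, ligated to linkers and amplified. The authors deposited RPKM values per gene model. Bowtie 1.2.3 is named in the submitters' processing notes, while the genome build, the annotation, the strand and the handling of multiply mapped reads are not given in the sources of this work. A second table with 45 value columns that the labels do not tie to samples was not used.

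Library totals and whole reads were deduced from the RPKM values, and 100% of 80624 values above 0 came out whole (tolerance 1e-06). A length is the shortest that gives whole reads or an annotated one (360 models raised), so this is a weak check. The reads entered only intervals, floors, the comparison of replicates and voom weights.

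Where models shared a symbol (610 symbols), the one with the highest mean was kept. Genes with RPKM of at least 1 in 2 libraries were tested with limma 3.58.1 in R 4.3.3 on log2(RPKM + 1), which understates changes of low genes, with a trended prior (2.80 prior and 2 residual degrees of freedom) and two-sided tests, adjusted by Benjamini-Hochberg over all genes tested. The input pair entered as 1 sample, assumed to vary like the precipitates. All groups shared 1 estimate of the spread per gene, drawn from both precipitate pairs. Calls needed an adjusted p under 0.05 and a log2 fold change of at least 1 in size. The fit was tested on simulated data with the same added spread in every library and changes in HRDE-1 only. The real libraries differ from this in both respects, so that test does not bear on the calls. Intervals are at 95%, and they and floors of 3 reads cover counting error only, since no molecular identifiers are described.

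Members and lists were chosen with earlier results of these data known. The text names the 8 members, up to 4 called genes per list, contrast and direction with the largest change, and the 5 genes (mean RPKM at least 5) nearest in profile. Genes that overlap a member or differ within the input pair are named because of it, and elc-1 and elb-1 were described further after their values were seen. neg-1 and ifet-1 are listed in the file as F32D1.6 and pqn-45. A planned list of other CCCH genes and the members' sequences are not used here. Alternatives were the pseudocount, the filter, the scale, the input pair as 2 samples, a replicate block, voom weights and each library left out.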

Additional observations from a re-analysis of the deposited data

How the results depend on the processing

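Members called in HRDE-1 against input numbered 5 on the settings used and 3 with a pseudocount of 5, 3 with no filter on low values, 2 on centred library medians, 2 with the median ratio to input at 0, and 0 to 6 with 1 library left out. Calls over all genes moved as well: 1124 of 10908 were lower on the settings used and 393 with a pseudocount of 5. They were 920 of 16433 with no filter, 333 on centred library medians and 489 with the median ratio at 0. With no filter, the adjusted p (limma) was 0.0506 for oma-2, 0.0901 for pos-1 and 0.0677 for pie-1. There moe-3 was called at −2.21 (limma adjusted p = 0.0418), a value that rests on 1 input library. With 2 input samples and 1 precipitate library left out, 3 to 5 members were called. Members called in CSR-1 against input numbered 2, and 5 with library medians centred, and 0 to 2 with 1 library left out. With no filter the count was also 2, but pie-1 was lost (limma adjusted p = 0.0695) and moe-3 was called lower at −2.17 (limma adjusted p = 0.0267). HRDE-1 against CSR-1 gave 6 members in each of the 18 alternatives, though those that change only the input could hardly alter it.

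Among the 7 tested members, oma-1 was the one whose fold changes turned sign under an alternative. HRDE-1 against input was 0.20 on centred library medians and 0.076 with the median ratio at 0. CSR-1 against input was 0.45 and 0.10 under these. With 1 library left out, it ran from −0.071 without input replicate 2 to 0.053 without input replicate 1, and was 0.047 without CSR-1 replicate 1 (0.049 with 2 input samples).

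Replicate numbers are shared by the groups and go with the library codes in the titles, but deviations of same-numbered libraries correlated weakly across 7632 genes (r = 0.068, 0.021 and 0.082). With a replicate block and 2 input samples, 5, 2 and 6 members were called, and over all genes 2099, 4894 and 7676, beside 2088, 4888 and 7665 without the block. Where a precipitate library was left out with the input as 1 sample, 1 group rested on a lone library assumed to vary like the others. Depth limits moe-3, which had at most 2 reads in 5 libraries, and pie-1 and pos-1 in HRDE-1.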
